A study of Mus musculus with 18 samples.

Results

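The genes described here encode subunits of cytoplasmic dynein and of its cofactor dynactin: Dync1h1, Dync1i2, Dync1li1, Dync1li2, Dynll1, Dynll2, Dynlrb1, Dynlt3, Dctn1 and Dctn2. They were chosen by measured values: a dynein-1 or dynactin symbol had to be present in the deposited count tables, and raw counts were summed per gene over the libraries. Of the 10 genes listed, 9 were in the dorsal root table and 10 in the sciatic nerve table, and 9 had a transcript in both, out of 12697 genes with a shared transcript and 15552 named in either table. The counts summed over 18 libraries, which served the choice and are given as a description, ran from 85 for Dctn1 and 4388 for Dync1i2 to 178638 for Dynll1 and 314663 for Dynlt3. The study sequenced RNA bound to Kif5A, a heavy chain of the kinesin motor that moves cargo toward axon tips, to find its RNA targets in axons of sensory neurons. Axoplasm, a lysate enriched for the content of axons, was ground from the dorsal roots or the sciatic nerves of C57B6 mice, and material of 5 animals was pooled for each of 3 independent biological repeats. The 6 groups of 3 libraries were, for each tissue, RNA precipitated with a rabbit antibody to Kif5A, RNA precipitated with rabbit IgG as isotype control, and the input. All mice were of this strain with no other treatment named, both tissues were taken from the same animal, and all libraries were made from amplified cDNA of total RNA.

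Cytoplasmic dynein is the motor that carries cargo along microtubules toward their minus ends, which in an axon means from the terminal back to the cell body. Its heavy chains hold the motor domains, intermediate and light intermediate chains link them to cargo and adaptors, and small light chains bind the intermediate chains. Dynactin binds to dynein and adaptors together and makes the motor processive. The subunits differ widely in size, and so do the mRNAs that encode them.

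Dynll1 and Dynll2 are paralogs that encode near-identical light chains, and their coding sequences are shown because the counts of these separate genes are given apart below. Dynll1 lies on chromosome 5, 115297110 to 115300999, and Dynll2 on chromosome 11, 87979525 to 87987533, both on the minus strand of GRCm38. The sequences are those of Dynll1-201 and Dynll2-201 in the GENCODE annotation of that build, 5′ to 3′ without the stop codon, and capitals mark the 50 bases that differ out of 267.
Dynll1: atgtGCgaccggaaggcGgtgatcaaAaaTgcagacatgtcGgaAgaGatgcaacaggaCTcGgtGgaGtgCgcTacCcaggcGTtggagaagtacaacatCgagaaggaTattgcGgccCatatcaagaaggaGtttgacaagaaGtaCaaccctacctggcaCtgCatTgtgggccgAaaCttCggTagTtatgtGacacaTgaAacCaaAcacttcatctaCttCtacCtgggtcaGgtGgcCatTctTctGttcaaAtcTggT
Dynll2: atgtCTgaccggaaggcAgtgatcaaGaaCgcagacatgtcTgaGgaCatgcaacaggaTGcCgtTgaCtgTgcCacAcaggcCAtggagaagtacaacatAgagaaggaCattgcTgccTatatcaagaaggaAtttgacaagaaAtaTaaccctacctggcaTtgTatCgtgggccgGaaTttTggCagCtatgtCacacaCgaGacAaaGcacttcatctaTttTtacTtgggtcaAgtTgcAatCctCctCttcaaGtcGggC
The coding sequences were 81.3% identical, with a longest shared run of 16 bases, and 45 of the 50 differences were at the last position of a codon, so that 6 of 89 residues differed. How reads shared between genes or transcripts were counted was not stated in the labels or file headers.

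The libraries held 11584418 to 22580824 counts in named transcripts. Replicate 3 stood apart: a chi-square per gene between replicates 1 and 2 of a group was 16.2 to 278, and between replicate 3 and either of them 77.3 to 487, larger in each of the 6 groups, so the results below are also given without replicate 3. The lysates were not purely axonal by their markers. Of 11 genes of myelinating Schwann cells, 10 were measured, at a summed 5677 to 29903 CPM (counts scaled to a common library size, for marker lists without further factors). Of 18 sensory neuron genes, 10 were measured, at a summed 189.8 to 771 CPM, while Scn10a, Trpv1, Prph and Avil were not, and Isl1 was listed at 0 in the IgG libraries of both tissues and the Kif5A libraries of sciatic nerve. Adipocyte genes, 6 of 8 measured, summed to 160.2 to 372 CPM in dorsal root against 5000.3 to 17885 in the sciatic nerve inputs, 29889 to 105692 in its IgG libraries and 8159 to 78365 in its Kif5A libraries. In such bulk lysates, fewer cells of a type and less RNA per cell cannot be told apart. No dynein or dynactin gene of the fits was at 0 in any library, while 5.65 to 9.18% of genes were at 0 in IgG libraries, 0.685 to 2.01% in Kif5A libraries and 0.362 to 1.06% in inputs.

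Per unit of transcript length, the light chain genes Dynll1, Dynlrb1 and Dynlt3 had the highest mean levels of the dynein genes in the inputs. The light chain gene Dynll2 and the heavy chain gene Dync1h1 were among the lowest. In dorsal root input the level was 766 ± 266 RPKM (SD, n = 3, counts scaled by transcript length and library size) for Dynll1. It was 599 ± 190.4 for Dynlrb1 and 453 ± 29.0 for Dynlt3, and the ranges of neighbours in this order overlapped. Dctn2 followed with 167 ± 42.6 RPKM, Dync1li2 with 49.0 ± 8.17 and Dync1li1 with 45.3 ± 2.67. The lowest levels were those of Dynll2, 15.7 ± 2.85 RPKM, Dync1h1, 9.38 ± 1.70, and Dync1i2, 6.41 ± 1.45, and these 3 did not overlap with each other. Sciatic nerve input put the genes in nearly the same order, with Dynlrb1 at 395 ± 69.1 RPKM, Dynll1 at 386 ± 25.3 and Dynlt3 at 368 ± 62.9 overlapping, and Dync1h1 at 13.1 ± 0.456. In all 4 groups of precipitates Dynlt3 had the highest mean level per length, from 303 ± 51.0 RPKM in sciatic nerve IgG to 695 ± 177 in dorsal root IgG, and Dync1i2 the lowest mean. The ranges of Dynlt3 and Dynll1 overlapped in the dorsal root Kif5A libraries, and those of Dynll2 and Dync1i2 in the sciatic nerve IgG libraries.

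**Figure D1:**
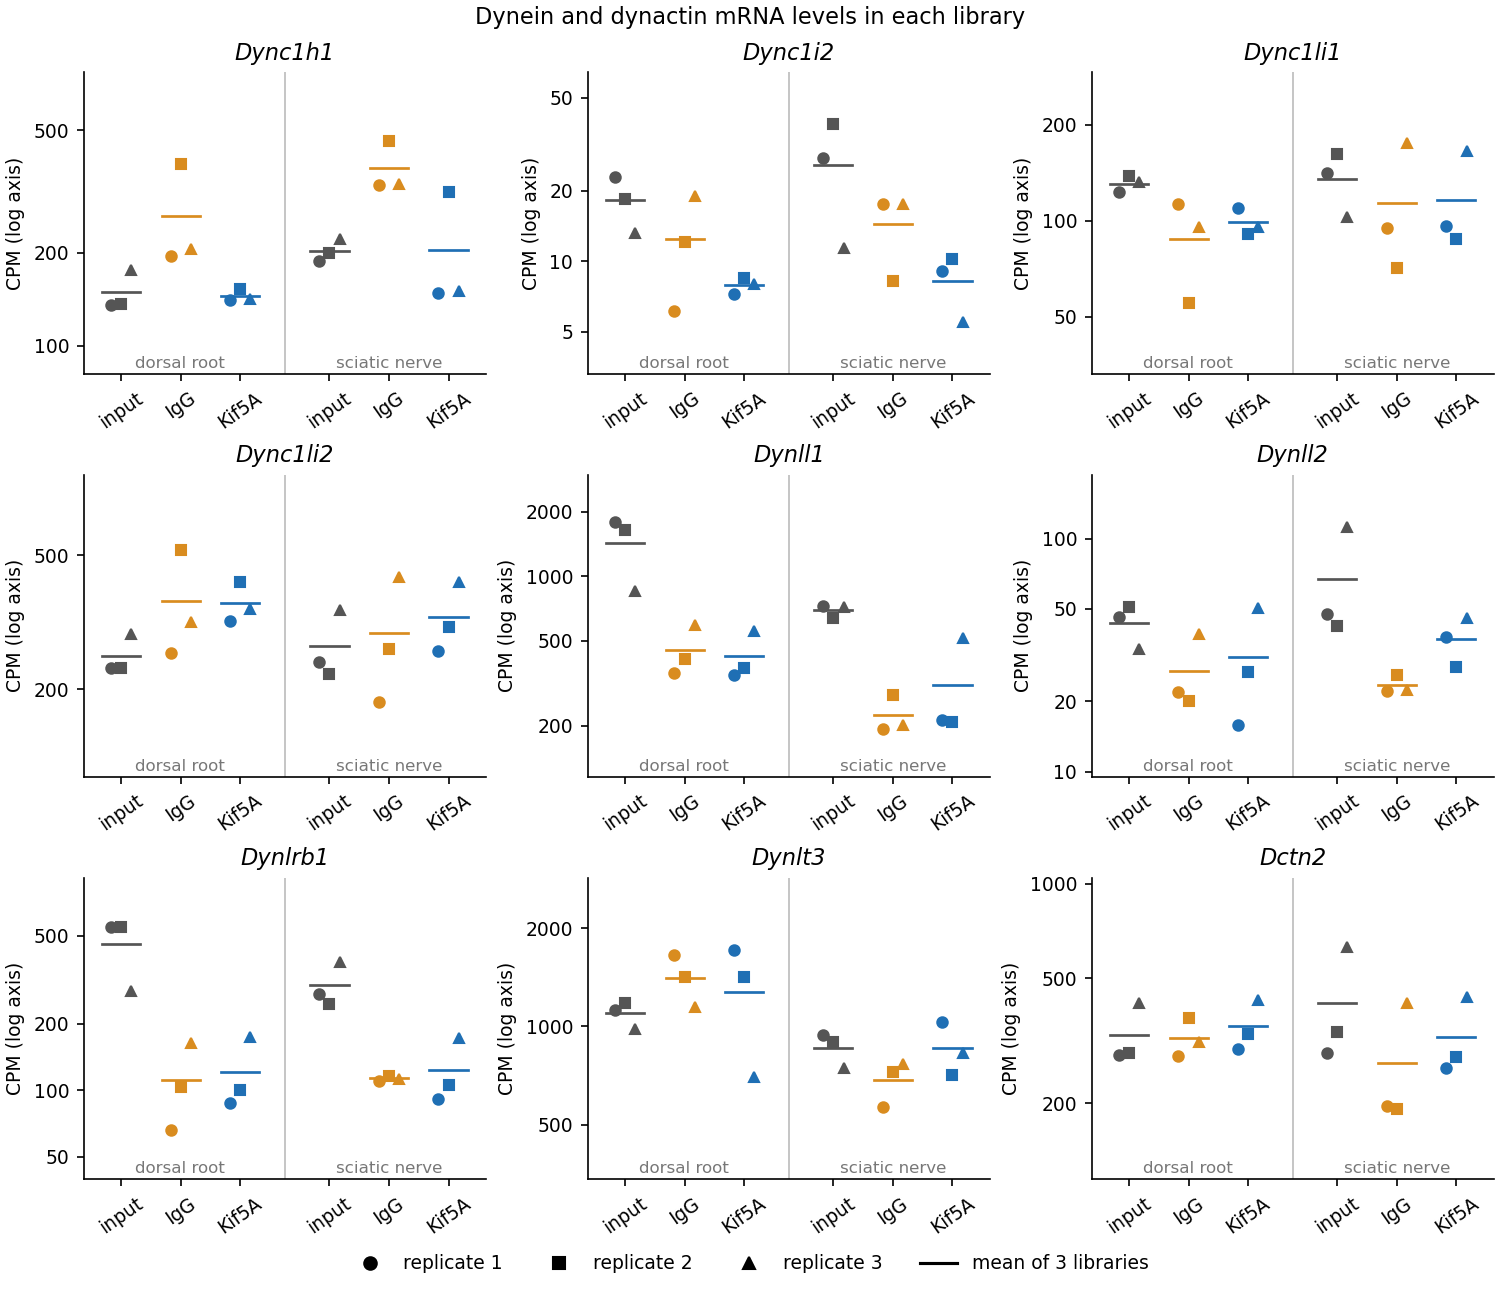
Level of each dynein or dynactin gene in every library in CPM on a log axis, with replicates 1, 2 and 3 as circle, square and triangle and a line at the mean of 3 libraries. Dynll1 and Dynlrb1 are higher in the inputs than in every precipitate of the same tissue, and Dync1h1 is highest in the IgG libraries.

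Kif5A precipitates were first compared with IgG precipitates, which share the beads and washes, to ask which RNAs bind with the antibody to Kif5A. None of the 9 genes passed an adjusted p of 0.05 in either tissue by edgeR's quasi-likelihood test or by DESeq2. For dorsal root, 0% of 12551 genes passed, 1 of the 9 had an unadjusted p under 0.05 against 5.98% of all genes, and 1 had groups that did not overlap, against 13.3%. In sciatic nerve, 0.0478% of genes passed, 1 of the 9 had an unadjusted p under 0.05 against 8.45%, and 2 had groups that did not overlap, against 16%. The median log2 ratio of the 9 genes was 0.03 in dorsal root and 0.20 in sciatic nerve, and that of all genes was -0.01 and -0.02. None of the 9 ratios differed between the tissues by a test of the difference itself, in which 0.0159% of genes passed. No gene of the 9 had an unadjusted p under 0.05 there, against 6.37% of all genes, the differences ran from -0.17 to 0.56, and the smallest unadjusted p was 0.318.

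Kif5A precipitates were then compared with the inputs of the same tissue. No gene of the 9 passed by edgeR in either tissue, where 0% of 12681 genes passed in dorsal root and 0.00789% in sciatic nerve. In dorsal root, 2 of the 9 had an unadjusted p under 0.05 against 8.39% of genes, and the groups of 5 did not overlap, 4 lower and 1 higher in the Kif5A precipitates, against 31.4%. In sciatic nerve, 3 had an unadjusted p under 0.05 against 6.07%, and 3 were lower without overlap, against 17.4%. By DESeq2, 2 of the 9 passed in dorsal root, Dynll1 and Dynlrb1, among 168 genes called, and 0 in sciatic nerve, where 48 genes were called. None of the 9 ratios to input differed between tissues, in a test that 0% of genes passed, and 0 of the 9 had an unadjusted p under 0.05, against 0.86%.

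In the IgG precipitates, compared with the same inputs by edgeR with all libraries, Dynll1 and Dynlrb1 passed, lower in both tissues. DESeq2 called both genes too and, in sciatic nerve, also Dynll2, among 1413 genes called in dorsal root and 1412 in sciatic nerve. By edgeR in dorsal root, the 2 of 9 compare with 1.23% of all genes that passed. There, 3 of the 9 had an unadjusted p under 0.05 against 19.4%, and 4 had groups that did not overlap against 30.4%. In sciatic nerve, 2 of 9 passed against 3.74%, 4 had an unadjusted p under 0.05 against 19.2%, and 4 did not overlap against 24.1%. Dynll1 and Dynlrb1 were also lower than input with Kif5A, without passing after adjustment. Their unadjusted p by edgeR in dorsal root was 0.00021 and 0.00010 with Kif5A, and 0.00033 and 5.4e-05 with IgG. In sciatic nerve it was 0.0058 and 0.0034 with Kif5A, and 0.00039 and 0.0017 with IgG. The comparisons of Kif5A with input and of IgG with input share the inputs, and those of Kif5A with IgG and of IgG with input share the IgG libraries, so their values are only set side by side. Over the 9 genes the median log2 ratio to input was -0.40 for Kif5A and -0.56 for IgG in dorsal root, and -0.36 and -0.64 in sciatic nerve. Over all genes these medians were 0.06, 0.06, 0.02 and 0.01. Scaling by library size alone moved the median of all genes for Kif5A against input to 0.39 in dorsal root and 0.20 in sciatic nerve, and for IgG against input in dorsal root to 0.30.

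**Figure D2:**
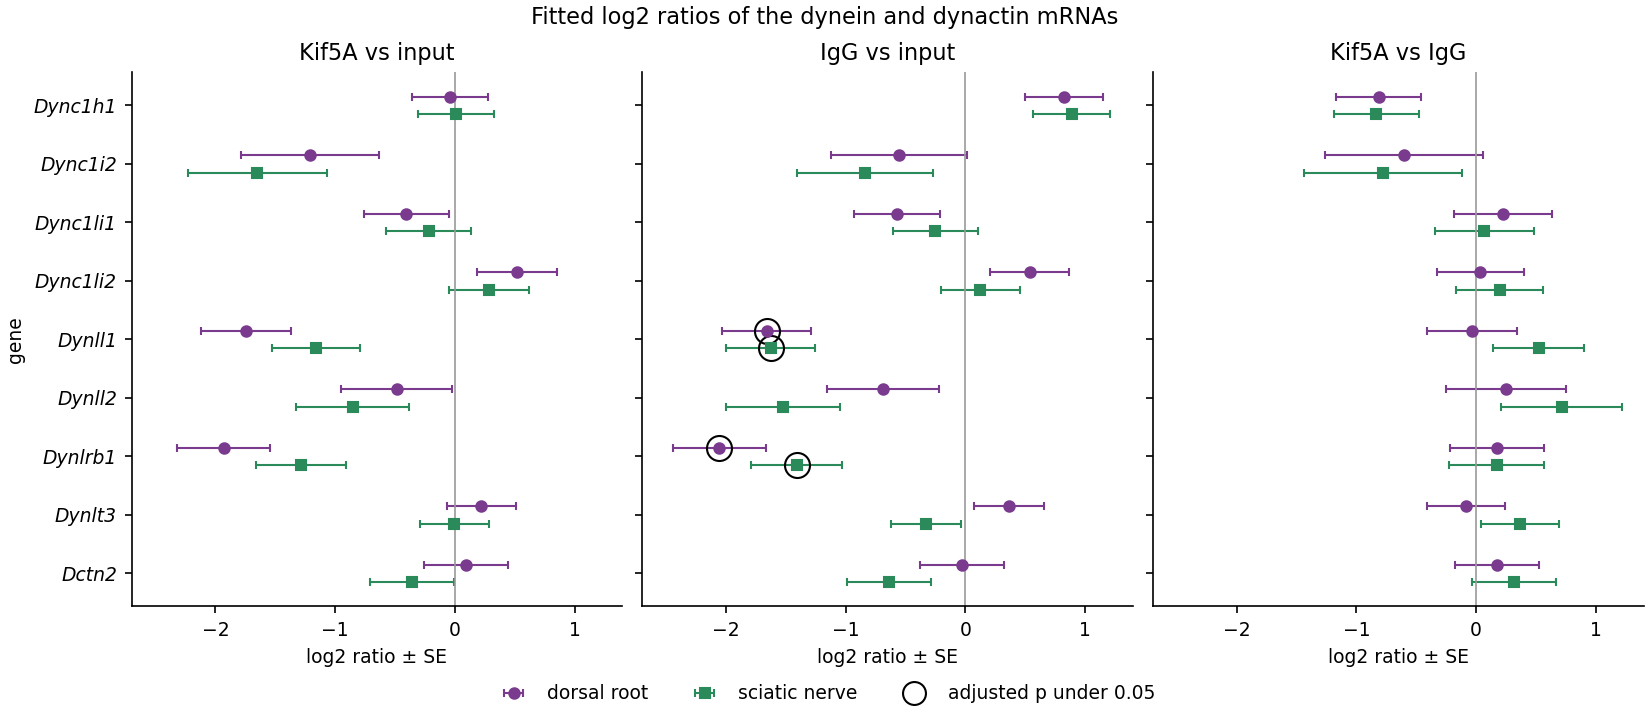
Log2 ratio of each of 9 genes in each comparison, with error bars of 1 standard error, circles for dorsal root, squares for sciatic nerve and a black ring around values with an adjusted p under 0.05 by edgeR's quasi-likelihood test. The ringed values are those of Dynll1 and Dynlrb1 for IgG against input, at -1.66 and -2.05 in dorsal root and -1.63 and -1.41 in sciatic nerve.

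Dync1h1 encodes the heavy chain, the subunit with the motor domains, and lies on chromosome 12, 110601452 to 110666945, plus strand, where the counted mRNA Dync1h1-201 has 77 exons and 14342 bases. In dorsal root its levels, in CPM scaled with TMM factors as for all single genes below, were 135, 137 and 175 in the inputs, 196, 389 and 206 in the IgG libraries and 140.2, 153 and 141 in the Kif5A libraries. In sciatic nerve they were 188, 199.6 and 222 CPM in the inputs, 331, 462 and 335 with IgG and 148, 316 and 150.1 with Kif5A. Every IgG library was above every input and every Kif5A library of its tissue, and replicate 2 was the highest of its group in the precipitates of both tissues. The log2 ratio of Kif5A to IgG was -0.81 (SE 0.36) in dorsal root and -0.84 (SE 0.36) in sciatic nerve, with adjusted p of 0.809 and 0.523 and unadjusted p of 0.0405 and 0.0361 by edgeR. Without replicate 3 the ratios were -0.95 and -0.72 with adjusted p of 0.599 and 0.682, and over 19 alternatives the ratio ran from -0.99 to -0.42 in dorsal root and from -1.28 to -0.66 in sciatic nerve without passing. The log2 ratio of IgG to input was 0.82 (SE 0.32, adjusted p = 0.168) in dorsal root and 0.89 (SE 0.32, adjusted p = 0.136) in sciatic nerve. Kif5A to input gave -0.04 in dorsal root, which was 0.29 with library size alone, and 0.01 in sciatic nerve, which was -0.014 with the size factors of DESeq2. The summed adipocyte genes in sciatic nerve, given above, were above all inputs in the IgG libraries and overlapped between IgG and Kif5A, and their part in the values of Dync1h1 was not tested.

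Dync1i2 encodes an intermediate chain, which joins the heavy chains to the light chains and to dynactin (chromosome 2, 71211706 to 71263303, plus strand). Its levels were low: 22.9, 18.5 and 13.3 CPM in dorsal root inputs, 6.15, 12.1 and 19.0 with IgG and 7.22, 8.44 and 7.97 with Kif5A. In sciatic nerve they were 27.7, 38.6 and 11.4 CPM in inputs, 17.6, 8.25 and 17.6 with IgG and 9.06, 10.2 and 5.49 with Kif5A. All Kif5A libraries were below all inputs of their tissue, while the IgG libraries overlapped with both. The log2 ratio of Kif5A to input was -1.21 (SE 0.58, adjusted p = 0.596) in dorsal root and -1.65 (SE 0.58, adjusted p = 0.674) in sciatic nerve by edgeR. Of the counts of this gene, 77.2% lay in transcripts annotated as retained introns, so the values describe mainly such RNA and not the mRNA of the protein.

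Dync1li1 (chromosome 9, 114688790 to 114724302, plus strand) and Dync1li2 (chromosome 8, 104417680 to 104443047, minus strand) encode the light intermediate chains, which bind the heavy chain tail and cargo adaptors. Dync1li1 had 123, 138 and 132 CPM in dorsal root inputs, 113, 55.3 and 95.5 with IgG and 109.7, 91.0 and 95.9 with Kif5A. Dync1li2 had 231, 231 and 292 CPM in these inputs, 256, 519.8 and 317 with IgG and 319.7, 417 and 345 with Kif5A. Thus for Dync1li1 in dorsal root the Kif5A and the IgG libraries were all below the inputs. For Dync1li2 the Kif5A libraries were all above the inputs, while the IgG libraries overlapped with them. The log2 ratios of Kif5A to input were -0.40 (SE 0.36, adjusted p = 0.844) for Dync1li1 and 0.52 (SE 0.33, adjusted p = 0.727) for Dync1li2. Those of IgG to input were -0.57 (SE 0.36, adjusted p = 0.392) and 0.54 (SE 0.33, adjusted p = 0.390), with none past the threshold of edgeR. In sciatic nerve Dync1li1 ranged from 103 to 162 CPM in inputs, 71.0 to 175 with IgG and 87.4 to 165 with Kif5A, and Dync1li2 from 222 to 344, 183 to 431 and 259 to 417, with all groups overlapping.

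Dynll1 encodes the light chain shared by dynein and many other protein complexes, and its main transcript Dynll1-201 has 2030 bases. In dorsal root it had 1784, 1647 and 853 CPM in inputs, 352, 412 and 593 with IgG and 347, 373 and 557 with Kif5A. In sciatic nerve it had 723, 641 and 720.2 CPM in inputs, 193, 279 and 202 with IgG and 213, 209 and 514 with Kif5A. Every precipitate was below every input of its tissue, and in dorsal root replicate 3 had the lowest input and the highest precipitates. IgG libraries were 3.16-fold lower than inputs in dorsal root (log2 ratio -1.66, SE 0.37, adjusted p = 0.0411) and 3.09-fold lower in sciatic nerve (log2 ratio -1.63, SE 0.37, adjusted p = 0.0281) by edgeR. Kif5A libraries were 3.35-fold lower in dorsal root (log2 ratio -1.74, SE 0.37, adjusted p = 0.270) and 2.23-fold lower in sciatic nerve (log2 ratio -1.16, SE 0.37, adjusted p = 0.590), which did not pass. Between Kif5A and IgG the log2 ratio was -0.03 in dorsal root, with an interval of 1.96 standard errors from -0.78 to 0.71, and 0.52 in sciatic nerve, with an interval from -0.22 to 1.27. Without replicate 3 the sciatic nerve ratio of Kif5A to IgG was -0.10.

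Dynlrb1 encodes a light chain of the roadblock family, which binds the intermediate chains (chromosome 2, 155236533 to 155250277, plus strand), and its main transcript has 684 bases. Its levels were 551, 551 and 283 CPM in dorsal root inputs, 66.0, 103 and 164 with IgG and 87.8, 101 and 175 with Kif5A. In sciatic nerve they were 274, 247 and 379.8 CPM in inputs, 110.2, 116 and 113 with IgG and 91.0, 106 and 173 with Kif5A. As for Dynll1, no precipitate reached the lowest input of its tissue. IgG libraries were 4.15-fold lower than inputs in dorsal root (log2 ratio -2.05, SE 0.39, adjusted p = 0.0277) and 2.65-fold lower in sciatic nerve (log2 ratio -1.41, SE 0.38, adjusted p = 0.0485) by edgeR. Kif5A libraries were 3.81-fold lower (log2 ratio -1.93, SE 0.39, adjusted p = 0.270) and 2.43-fold lower (log2 ratio -1.28, SE 0.38, adjusted p = 0.579). The Kif5A to IgG log2 ratio was 0.17 in both tissues, with intervals of 1.96 standard errors from -0.60 to 0.95 in dorsal root and from -0.60 to 0.94 in sciatic nerve.

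These light chain calls moved with the libraries used. Without replicate 3 in every group, Dynll1 and Dynlrb1 passed in all 4 comparisons with input by edgeR. The Kif5A to input log2 ratios were then -2.19 and -2.48 in dorsal root (adjusted p = 0.00326 for both) and -1.60 and -1.31 in sciatic nerve (adjusted p = 0.0145 and 0.0389), among 454 and 116 genes called of 12656. The IgG to input ratios were -2.14 and -2.67 (adjusted p = 0.00120 for both) in dorsal root and -1.48 and -1.15 (adjusted p = 0.00565 and 0.0213) in sciatic nerve. The number of all genes called for IgG without replicate 3 is not given here, so whether these IgG calls stand out cannot be read from them. In the fit with all libraries, the IgG calls of dorsal root were both lost on leaving out replicate 1 or 2 of the IgG libraries or replicate 1 or 2 of the inputs, and that of Dynll1 on leaving out replicate 3 of the inputs (adjusted p = 0.0544). In sciatic nerve, leaving out any of the 6 libraries ended at least 1 of the 2 calls. Fitting only the groups compared ended the IgG calls (adjusted p = 0.102 in dorsal root and 0.0863 in sciatic nerve for both genes) and gave the Kif5A calls in dorsal root (adjusted p = 0.0381 for Dynll1 and 0.0352 for Dynlrb1). With a replicate block within each tissue, Dynlrb1 in sciatic nerve IgG against input had a log2 ratio of -1.37 and an adjusted p of 0.0532. Neither gene changed sign against input in any of 19 alternatives per comparison.

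Marker lists of other cells moved in both directions between inputs and precipitates. In sciatic nerve the 5 erythroid genes measured of 5 summed to 1605 to 1624 CPM in inputs, 258 to 362 with IgG and 610.3 to 674 with Kif5A, and skeletal muscle genes, 4 of 6 measured, to 722 to 917, 331 to 398 and 393 to 588. Macrophage genes, 9 of 9 measured, at 1380.3 to 1932 CPM in inputs, 1109.7 to 1228 with IgG and 1074 to 1311 with Kif5A, and mast cell genes, 5 of 6 measured, at 291 to 340.0, 117 to 198 and 156 to 189, were likewise above all precipitates. In dorsal root the muscle genes, at 72.8 to 116 CPM in inputs against 32.5 to 45.5 and 30.4 to 57.5, were higher in inputs without overlap, while the erythroid genes, at 2609 to 4019, 728 to 3281 and 904 to 3246, overlapped. Other lists were lower in the inputs: sensory neuron genes summed in dorsal root to 391 to 431 CPM in inputs, 471 to 539 with IgG and 613 to 771 with Kif5A, and in sciatic nerve to 189.8 to 268, 359.5 to 477 and 325 to 487. In dorsal root this also held for oligodendrocyte and astrocyte genes, 5 of 8 measured, at 1001 to 1431 CPM in inputs, 1570.2 to 2695 with IgG and 2430.4 to 2852 with Kif5A. Non-myelinating Schwann cell genes, 7 of 7 measured, did the same there at 1347 to 1879, 2209 to 2375 and 1925 to 2372. None of these genes but Isl1 was at 0 in all 3 libraries of a group, and the part of these cells in the light chain values was not tested.

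The other light chains passed no comparison by edgeR. Dynll2, the paralog whose coding sequence is shown above, had 46.1, 50.8 and 33.5 CPM in dorsal root inputs, 22.0, 20.1 and 38.9 with IgG and 15.9, 26.9 and 50.3 with Kif5A, and these groups overlapped. In sciatic nerve it had 47.3, 42.0 and 113 CPM in inputs, 22.1, 25.9 and 22.4 with IgG and 37.7, 28.2 and 45.8 with Kif5A. There the IgG libraries were the lowest: below all inputs, with a log2 ratio of -1.52 (SE 0.48, adjusted p = 0.0844 by edgeR and 0.0129 by DESeq2), and below all Kif5A libraries, with a log2 ratio of Kif5A to IgG of 0.71 (SE 0.50, adjusted p = 0.825). Dynlt3 (chromosome X, 9654267 to 9663003, minus strand) encodes a light chain of the Tctex family. It had 1127, 1176 and 986 CPM in dorsal root inputs, 1660.2, 1422 and 1148 with IgG and 1717, 1420.4 and 701 with Kif5A. In sciatic nerve it had 944, 897 and 744 CPM in inputs, 567, 723 and 767 with IgG and 1035, 710.3 and 831 with Kif5A. All groups of precipitates overlapped with their inputs, and the log2 ratios of Dynlt3 to input were 0.22 for Kif5A and 0.36 for IgG in dorsal root and -0.00 and -0.33 in sciatic nerve, with none past the threshold.

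Dctn2 encodes dynamitin, which joins the cargo-binding filament of dynactin to its projecting arm (chromosome 10, 127266368 to 127281950, plus strand). Its levels were 285, 289 and 417 CPM in dorsal root inputs, 284, 374 and 313 with IgG and 299, 333 and 425 with Kif5A. The sciatic nerve levels were 289, 336 and 627 CPM in inputs, 196, 191 and 417 with IgG and 259, 282 and 436 with Kif5A. All groups overlapped within a tissue, replicate 3 was the highest in 5 of the 6 groups, and no log2 ratio of Dctn2 passed a threshold of 0.05. Dctn1 encodes the large dynactin subunit that binds microtubules and the dynein intermediate chain (chromosome 6, 83165920 to 83200117, plus strand). Only 1 of its 12 annotated transcripts, Dctn1-201, was listed, in the sciatic nerve table alone, and it did not enter the fits. It had 5, 4 and 5 counts in inputs, 2, 6 and 39 with IgG and 9, 8 and 7 with Kif5A, so that replicate 3 of the IgG libraries held most of its IgG counts. In the authors' deposited table, its log2 fold change was -0.08 for Kif5A against IgG and 0.59 against input, with false discovery rates of 0.992 and 0.960.

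Inputs of the 2 tissues differed for none of the 9 genes by edgeR, in a comparison that 4.12% of 12215 genes passed. Of the 9, 1 had an unadjusted p under 0.05 against 14.6% of genes, and 3 had groups that did not overlap against 21.1%: Dync1h1 higher in sciatic nerve, Dynll1 and Dynlt3 lower. Their log2 ratios of sciatic nerve to dorsal root were 0.46 (SE 0.23, adjusted p = 0.408), -1.02 (SE 0.30, adjusted p = 0.112) and -0.33 (SE 0.21, adjusted p = 0.563). DESeq2 called Dynll1 (adjusted p = 0.0352), among 1061 genes called. Without replicate 3 of both tissues, edgeR called 4 of the 9, among 3517 genes called of 12243. These were Dynll1 at -1.36, Dynlrb1 at -1.11, Dync1h1 at 0.48 and Dync1i2 at 0.65, with adjusted p of 1.5e-06, 9.2e-06, 0.0115 and 0.0425. Leaving out replicate 3 of the sciatic nerve inputs alone gave 3 calls, and of the dorsal root inputs alone 1, that of Dynll1. The number of all genes called on leaving out either library alone is not given here, so whether these calls stand out cannot be read from them. Several marker lists also separated the inputs without overlap. Lower in sciatic nerve were sensory neuron genes (391 to 431 CPM in dorsal root, 189.8 to 268 in sciatic nerve), oligodendrocyte and astrocyte genes (1001 to 1431, then 239.5 to 306) and erythroid genes (2609 to 4019, then 1605 to 1624). Higher there were adipocyte genes (160.2 to 266, then 5000.3 to 17885), muscle genes (72.8 to 116, then 722 to 917), mast cell genes (2.35 to 7.68, then 291 to 340.0) and fibroblast and perineurial genes (4523 to 5568, then 7285 to 22522). The part of these cells in the comparison of inputs was not tested.

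The summed counts of the 4 light chains were set against those of the heavy chain in the same library, a ratio in which scaling cancels. The rule that chose the genes pointed at this pair, so the ratio is given as a description, without a test. The log2 ratio of light chain to Dync1h1 counts was 4.70, 4.65 and 3.62 in dorsal root inputs, 3.42, 2.33 and 3.24 with IgG and 3.95, 3.65 and 3.39 with Kif5A. In sciatic nerve it was 3.40, 3.19 and 3.14 in inputs, 1.43, 1.31 and 1.72 with IgG and 3.22, 1.74 and 3.38 with Kif5A. The means were 4.32 ± 0.61 (SD, n = 3), 3.00 ± 0.58 and 3.66 ± 0.28 in dorsal root and 3.25 ± 0.14, 1.49 ± 0.21 and 2.78 ± 0.91 in sciatic nerve, so each IgG group was the lowest and each input the highest of its tissue. As counts, the light chains summed to 20.0-fold the heavy chain in dorsal root input (ratio of geometric means), 12.7-fold with Kif5A and 7.98-fold with IgG, and to 9.48-fold, 6.86-fold and 2.81-fold in sciatic nerve. The ranges of all groups overlapped within a tissue for Kif5A against input; the sciatic nerve IgG libraries were below all inputs and all Kif5A libraries of their tissue, and the dorsal root IgG libraries below all inputs. Replicate 2 of the sciatic nerve Kif5A libraries set their order against the inputs: without it the Kif5A mean was 3.30, above the input mean. Without replicate 3 the dorsal root input mean was 4.67.

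Each light chain took a different part in this ratio. The mean log2 ratio of Dynll1 to Dync1h1 counts was 3.20 in dorsal root input, 0.82 in its IgG libraries and 1.53 in its Kif5A libraries, and the sciatic nerve means were 1.78, -0.74 and 0.57. Dynlrb1 gave 1.58, -1.27 and -0.32 in dorsal root and 0.54, -1.71 and -0.69 in sciatic nerve. In the sciatic nerve Kif5A libraries the ratios were 0.53, -0.60 and 1.78 for Dynll1 and -0.70, -1.58 and 0.21 for Dynlrb1. Replicate 2 thus had the lowest ratio for both genes, and replicate 3 of Dynll1 lay within the range of the inputs. The level of Dync1h1, the denominator, was 148, 316 and 150.1 CPM in these libraries, so it was highest in replicate 2. Dynll1 was at 213, 209 and 514 CPM and Dynlrb1 at 91.0, 106 and 173 CPM, close between replicates 1 and 2. For Dynlt3 the mean was 2.89 in dorsal root input and 3.05 with Kif5A, and 2.08 and 2.15 in sciatic nerve, differences smaller than the SD of 0.669 and 0.864 among the Kif5A libraries. With IgG the mean of Dynlt3 was 2.48 and 0.87. Dynll2 gave -1.79, -3.28 and -2.38 in dorsal root and -1.74, -3.99 and -2.39 in sciatic nerve.

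**Figure D3:**
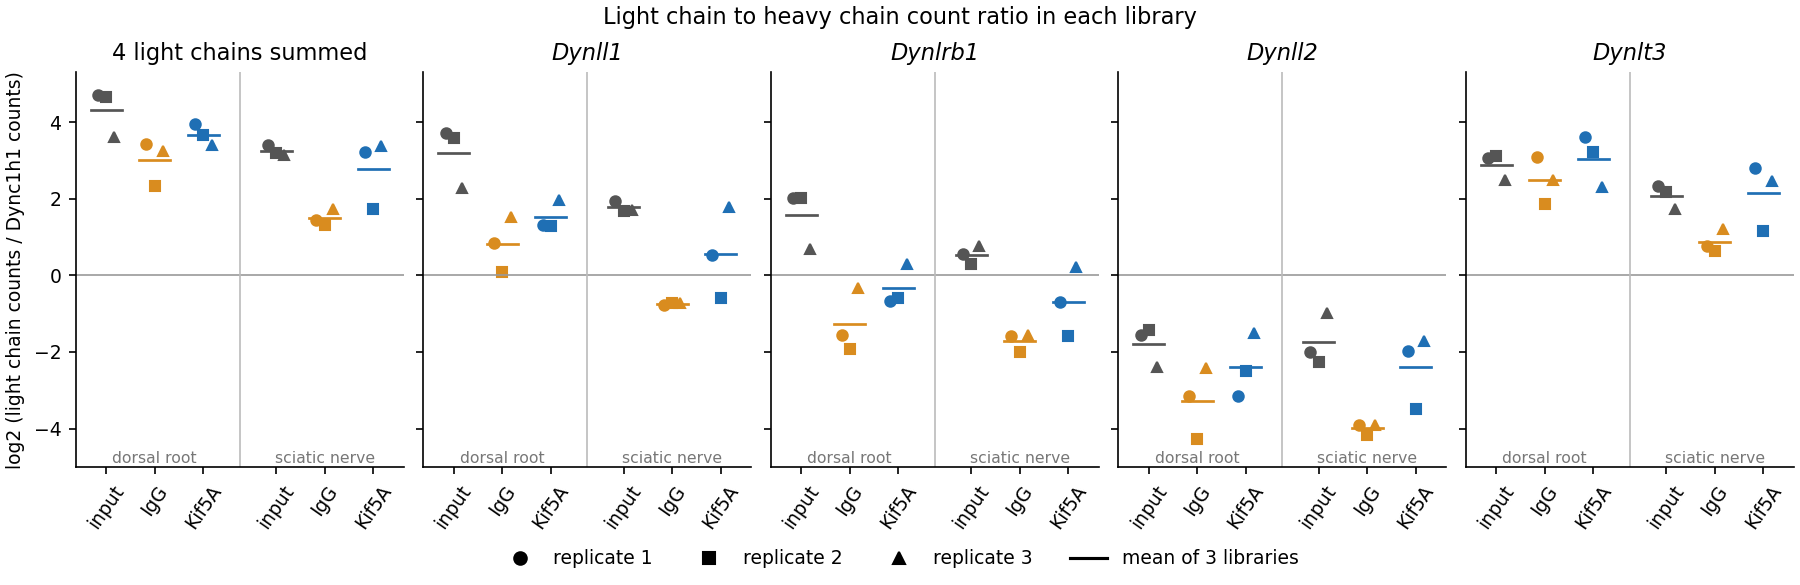
Log2 ratio of light chain counts to Dync1h1 counts in each library, for the 4 light chains summed and for each alone, by tissue and group, with replicates 1, 2 and 3 as circle, square and triangle and a line at the mean of 3 libraries. For the sum the inputs have the highest means, 4.32 in dorsal root and 3.25 in sciatic nerve, and the IgG libraries the lowest, 3.00 and 1.49.

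Over all genes, those with short transcripts had lower ratios to input than those with longer ones. Length was the count-weighted mean over the listed transcripts of a gene, coding or not. The median log2 ratio of Kif5A to input in dorsal root was -0.73 for 1730 genes under 1 kb and 0.05 for 2910 genes from 1 to 2 kb. It was 0.18 from 2 to 4 kb, 0.16 from 4 to 8 kb and 0.23 for 473 genes from 8 kb. The medians of IgG to input in dorsal root were -0.87, 0.03, 0.21, 0.19 and 0.27 in the same order. In sciatic nerve the under 1 kb medians were -0.49 for Kif5A and -0.35 for IgG, and the others lay between 0.03 and 0.17. Dynlrb1, at a mean of 697 bases, is in the shortest class, and 7.86% of its genes had a lower Kif5A to input ratio in dorsal root and 15.7% in sciatic nerve. For IgG these shares were 13.1% and 17.1%. Dynll1, at a mean of 1869 bases, is in the 1 to 2 kb class, where 2.17% and 5.36% of genes had a lower Kif5A to input ratio and 8.21% and 9.07% a lower IgG to input ratio. Dynll2, with 2476 bases, is in the 2 to 4 kb class, where 19.5% and 10.3% of genes had a lower Kif5A to input ratio and 20.1% and 11.6% a lower IgG to input ratio. Dync1i2, at a mean of 2888 bases, is in the same class and was above 4.71% and 2.57% of genes for Kif5A and 23.7% and 20.5% for IgG. Its counts lay mainly in retained-intron transcripts. Dynlt3, with 2176 bases, sat near the middle of that class, above 52.2% and 44.6% of genes for Kif5A and 55.8% and 36.1% for IgG. Dync1h1, with 14342 bases, was above 34.5% and 44.4% of the longest class for Kif5A and above 76.7% and 79.3% for IgG. All 4 light chains have short coding sequences of 267 to 348 bases, and differences in ratio between them were not tested. RNA length and the capture by beads were not varied by the design, and their part was not tested.

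**Figure D4:**
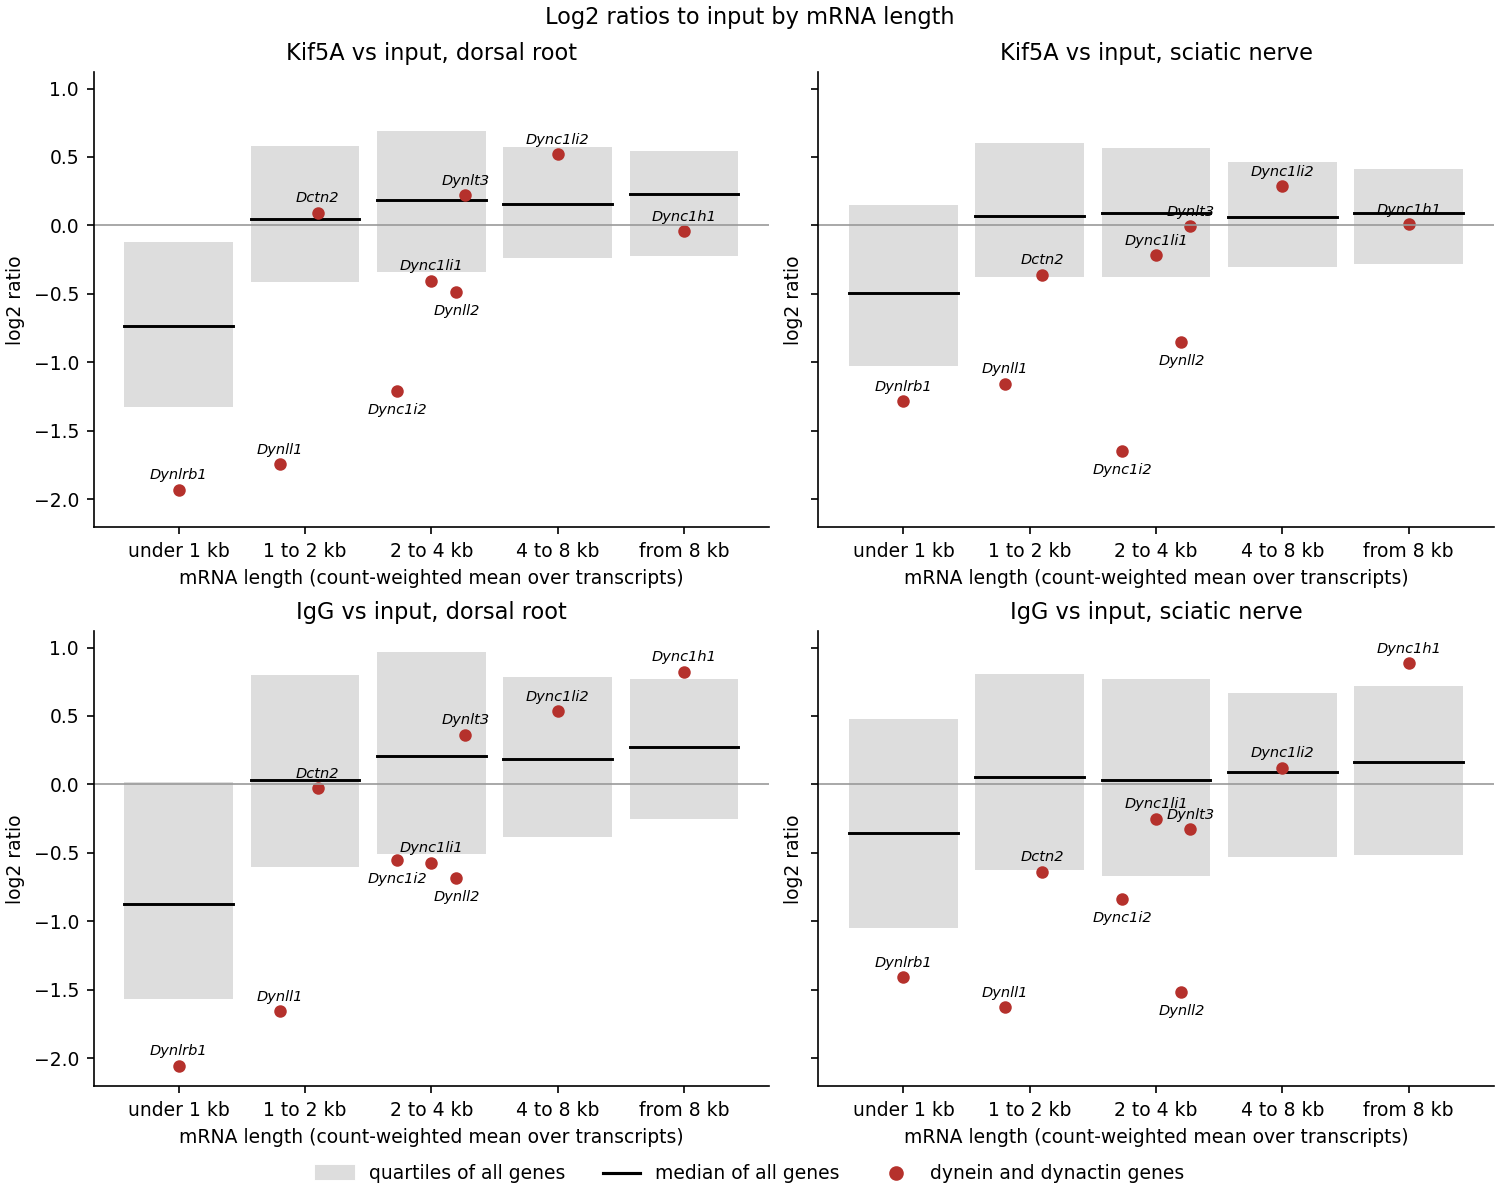
Log2 ratio to input in each tissue by class of length, the count-weighted mean over the listed transcripts of a gene, coding or not. Grey boxes run from the lower to the upper quartile of all genes, with black lines at their medians. Red points are the dynein and dynactin genes. Dynlrb1, Dynll1, Dynll2 and Dync1i2 lie below the box of their class in all 4 panels, and Dynlt3 lies inside its box. Dync1li1 lies below its box in both dorsal root panels, and Dctn2 just below its box for IgG in sciatic nerve. Dync1h1 lies above its box in both IgG panels. The counts of Dync1i2 lay mainly in retained-intron transcripts.

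Other genes of the pathway gave few calls. Of 6 further dynein-1 subunit genes 3 were tested, the near-identical copies Dynlt1a, Dynlt1c and Dynlt1f, whose counts are uncertain because reads may be split among them, and 0 passed in any comparison by edgeR, with 0 at an unadjusted p under 0.05. The copies Dynlt1a and Dynlt1f had log2 ratios of Kif5A to input of -0.97 and -1.07 in dorsal root, where every Kif5A library was below every input, while that of Dynlt1c was 0.85. All 10 further dynactin genes were tested and 0 passed, with Dctn3 reaching an unadjusted p of 0.0314 for IgG against input of dorsal root (log2 ratio -1.15, adjusted p = 0.206) and Dctn6 at 0.0106 for sciatic nerve against dorsal root input (log2 ratio -0.97, adjusted p = 0.141). Without replicate 3 Dctn3 passed (adjusted p = 0.0194). Dctn5 had a Kif5A to input log2 ratio of 2.10 in dorsal root (adjusted p = 0.603) and passed only with the groups compared alone (adjusted p = 0.0397), and its level there was 12.1 ± 4.21 CPM against 2.82 ± 0.605 in inputs.

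Of 24 genes for dynein regulators and cargo adaptors, 17 were tested, and 0 passed for Kif5A against IgG or input. Over all genes, 1.23% passed by edgeR for IgG against input in dorsal root and 3.74% in sciatic nerve, and at most 0.0478% for Kif5A. For IgG against input in dorsal root, 1 of the 17 rose, Numa1, which encodes a dynein-binding protein of the spindle poles. It went from 6.46 ± 2.02 to 44.0 ± 19.3 CPM (log2 ratio 2.77, SE 0.59, adjusted p = 0.0395). Of the 17 genes, 7 had an unadjusted p under 0.05 there, all higher with IgG, against 19.4% of all genes, and the median log2 ratio of the 17 was 0.69 against 0.06 over all genes. In sciatic nerve 3 of the 17 had such a p, all lower with IgG, against 19.2%, and the median of the 17 was -0.21 against 0.01. Of these, 1 fell, Mapk8ip1, a scaffold protein that binds kinesin and dynactin, from 12.2 ± 1.10 to 1.46 ± 0.855 CPM with IgG (log2 ratio -3.06, SE 0.76, adjusted p = 0.0390). In the Kif5A libraries of sciatic nerve Mapk8ip1 was at 7.63 ± 1.66 CPM, above all IgG libraries (log2 ratio 2.42, adjusted p = 0.369). Nde1, a dynein regulator, was likewise at 3.85 ± 1.22 CPM with Kif5A against 0.777 ± 0.148 with IgG (log2 ratio 2.34, adjusted p = 0.343 by edgeR and 0.00577 by DESeq2). Hap1, an adaptor linked to dynactin, had 3.95 ± 2.77 CPM in sciatic nerve input and 16.1 ± 2.62 in dorsal root input (log2 ratio -1.99, adjusted p = 0.0833).

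Of 5 genes of the dynein of cilia and its transport complex, all tested, 1 rose with IgG against input in both tissues and 0 passed for Kif5A. This was Wdr60, an intermediate chain of that dynein, at 92.0 ± 51.4 CPM against 15.4 ± 3.61 in dorsal root (log2 ratio 2.58, SE 0.48, adjusted p = 0.0277) and 129.6 ± 15.7 against 25.5 ± 9.59 in sciatic nerve (log2 ratio 2.35, SE 0.48, adjusted p = 0.0198). With Kif5A it had 30.9 ± 5.20 and 72.2 ± 33.7 CPM, with log2 ratios to input of 1.00 and 1.50 that did not pass. Over all genes, 1.23% and 3.74% passed by edgeR for IgG against input in dorsal root and sciatic nerve, and 0% and 0.00789% for Kif5A against input. The calls of Numa1, Mapk8ip1 and Wdr60 were lost when only the groups compared were fitted. Those of Numa1 and Wdr60 in dorsal root and of Mapk8ip1 in sciatic nerve were also lost on leaving out any single IgG or input library of the tissue but replicate 3 of IgG, and that of Wdr60 in sciatic nerve on leaving out any single input. Over 19 alternatives the adjusted p reached 0.397 for Numa1, 0.270 for Mapk8ip1, and for Wdr60 0.367 in dorsal root and 0.185 in sciatic nerve.

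The authors' deposited tables give fold changes per transcript, made with edgeR per the submitters' processing notes. For Kif5A against input in dorsal root the authors' deposited table lists log2 fold changes of -1.80 for Dynll1-201 (false discovery rate 0.000237), -2.01 for Dynll1-202 (0.00165) and -2.18 for Dynlrb1-202 (0.000121). For sciatic nerve the authors' deposited table has -1.33 for Dynlrb1-202 (false discovery rate 0.0159) and -1.21 for Dynll1-201 (0.0565). For Kif5A against IgG the authors' deposited tables list Dync1h1-201 at -0.78 (false discovery rate 0.115) in dorsal root and -0.88 (0.0722) in sciatic nerve. These are values per transcript from a model that the labels and headers do not describe, and the values above come from fits per gene.

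Across the 18 libraries, which share depth, groups and replicate pools, the genes most like Dync1h1 in log2(CPM + 0.5) were Ppp4r1l-ps, Pdcd11, Gli1, Neurl4 and Arglu1, with Pearson r of 0.887, 0.878, 0.860, 0.848 and 0.837 among 7445 genes of at least 10 CPM. Those most like Dynll1 were Gm10094, Mrps36, Eif1, Mrps36-ps1 and Cnih4, with r of 0.966, 0.956, 0.939, 0.937 and 0.935. Among the dynein genes themselves, Dynll1 had an r of 0.890 with Dynlrb1, 0.600 with its paralog Dynll2, 0.231 with Dynlt3 and -0.557 with Dync1h1. Mrps36-ps1 is a pseudogene of Mrps36, so reads may be shared between them. These values describe the levels in these libraries, in which the group means differ.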

How the data were processed

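RNA of Kif5A precipitates, IgG precipitates and inputs was sequenced in 18 libraries. The authors deposited raw read counts per Ensembl transcript, with log2 fold changes and p-values adjusted as false discovery rates, per the file headers. The submitters' processing notes name CASAVA 1.8.2, edgeR and the builds mm10 and GRCm38; no aligner, counting tool or use of strand is named there. Rows without a gene name, 283 and 266 with 0.138 to 0.237% of counts, were left out. Counts of the 16878 transcripts present in both tables (21207 and 19096 rows, none with a sum under 17) were summed per gene. Precipitates were compared in a fit of 12 libraries, comparisons with input in a fit of 18, and inputs in a fit of 6, with TMM scaling, edgeR's default expression filter and the quasi-likelihood test (R 4.3.3, edgeR 4.0.16), and p-values were adjusted over all genes tested by Benjamini-Hochberg at 0.05. DESeq2 1.42.0 and limma-voom (limma 3.58.1) were alternatives, with other scalings, filters, sets of libraries and leaving out each replicate. The scripts were tested on simulated data. Lengths come from the GENCODE M21 transcripts of GRCm38.

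Depth was 11584418 to 22580824 counts per library, with 3 libraries a group. The intervals of Kif5A to IgG ratios span 1.96 standard errors on either side. These come from the fit of 12 libraries, whose estimate of spread drew on all its groups and on other genes. Libraries were grouped by their labels. Both tissues came from the same animal, but no label says that equal replicate numbers mark the same pool. Deviations of same-numbered libraries correlated at -0.05 to 0.36 and those of other numbers at -0.29 to 0.25. Per pair of groups, 0 to 3 of 3 libraries correlated best with their own number, and most pairs had 2. Dorsal root input and Kif5A had 3, at 0.026 to 0.142 for same numbers and -0.123 to 0.0055 for others. Since no pair of groups had all same-number correlations over 0.1, the main fits took no pairing. A shared replicate structure is not excluded by this, and fits with a replicate block are given as alternatives. The genes and lists were chosen with earlier results of these data known. All 10 genes are named in the text. From each pathway list, genes with an adjusted p under 0.05 are named or, with none, up to 2 with the smallest unadjusted p, and for likeness the 5 genes with the highest r. Genes from those lists named beyond this were chosen after their values were seen.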

Additional observations from a re-analysis of the deposited data

How the results depend on the processing

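Of 1170 alternative values of the 9 genes, 1042 kept their direction and side of the threshold, 74 changed sign, 18 gained a call and 36 lost one. No call of Dynll1 or Dynlrb1 changed sign; causes were not tested. For Kif5A against input in dorsal root the genes called were 2 with DESeq2, 2 with only the groups compared and 0 to 2 on leaving out libraries, and in sciatic nerve 0 to 2 on leaving out libraries. For IgG against input they were 0 with only the groups compared and 0 with the 9 libraries of each table, an alternative chosen after seeing the data, and 0 to 2 on leaving out libraries, in both tissues. For the inputs they were 1 with DESeq2 and 0 to 4 on leaving out libraries. With a replicate block within each tissue, 1 gene was called for IgG against input in sciatic nerve, and the replicate block changed no other call of the 9 genes. The light to heavy chain log2 ratio without Dynll1 was 3.42 in dorsal root input, 3.25 with Kif5A there, 2.60 in sciatic nerve input and 1.14 with IgG there.

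Over all genes, DESeq2 called 150 and 405 genes for Kif5A against IgG in dorsal root and sciatic nerve against 0 and 6 by edgeR, 187 against 2 for their difference, 168 and 48 against 0 and 1 for Kif5A against input, 1413 and 1412 against 156 and 474 for IgG against input, and 1061 against 503 for the inputs. With only the groups compared, 390 genes were called for Kif5A against input in dorsal root. With library size alone, IgG against input in dorsal root gave 203 higher and 99 lower calls, against 71 and 85. The replicate block gave 621 and 656 calls for IgG against input.

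Values without a call changed sign as follows. For Kif5A against IgG in dorsal root, Dync1li2 was -0.0025 with DESeq2 and with its size factors and -0.011 in 9 libraries, and Dynll1 0.010 with library size alone. For Kif5A against input, Dync1h1 was 0.29 in dorsal root with library size alone, and in sciatic nerve -0.014 with DESeq2 and its size factors, -0.065 with voom, -0.064 with the replicate block and -0.082 with the block within tissue. Dynlt3 there was 0.17 with library size alone, 0.021 with only the groups compared and 0.014 in 9 libraries. Dctn2 for IgG against input in dorsal root was 0.21 with library size alone, 0.021 with the replicate block and 0.013 with only the groups compared.

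Leaving out libraries gave these ranges with both signs. Kif5A against IgG in dorsal root: Dync1li1 -0.022 to 0.44, Dync1li2 -0.17 to 0.38, Dynll1 -0.28 to 0.21, Dynll2 -0.29 to 0.61, Dynlrb1 -0.19 to 0.57, Dynlt3 -0.37 to 0.21, Dctn2 -0.0082 to 0.34, Dynlt1f -0.21 to 1.39 and Dctn3 -0.12 to 1.03. The same in sciatic nerve: Dync1li1 -0.28 to 0.56, Dync1li2 -0.054 to 0.62, Dynll1 -0.10 to 0.92, Dynlrb1 -0.16 to 0.33 and Actr10 -0.92 to 0.24. Kif5A against input in dorsal root: Dync1h1 -0.095 to 0.17, Dynlt3 -0.047 to 0.57 and Dctn2 -0.012 to 0.30. In sciatic nerve: Dync1h1 -0.45 to 0.35, Dync1li1 -0.62 to 0.13, Dynlt3 -0.16 to 0.18 and Dctn2 -0.63 to 0.059. IgG against input: Dctn2 -0.20 to 0.22 in dorsal root, and in sciatic nerve Dync1li1 -0.82 to 0.17, Dync1li2 -0.27 to 0.37, Dctn5 -0.72 to 2.72 and Capzb -2.03 to 0.24. Inputs: Dync1li1 -0.12 to 0.22, Dync1li2 -0.12 to 0.22, Dynll2 -0.14 to 1.03 and Dctn2 -0.075 to 0.55. With 3 libraries a group, Dync1i2, Dynll2 and Dctn1 had the fewest counts and the least precise values. The fit of only the groups compared is the same as that reported for the difference of Kif5A and IgG between tissues, and the sum of Dync1h1 and Dctn1 could be had in sciatic nerve alone.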
